A study of Mus musculus with 6 samples.

Results

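Adenylate kinases are enzymes that pass a phosphate group between adenine nucleotides, turning ATP and AMP into ADP and back. They let cells even out their energy supply in places far from mitochondria, such as the shaft of a beating cilium, where dynein motors burn ATP. Some members of the family are built into motile cilia, and mice that lack Ak7 or Ak8 are known to develop hydrocephalus, an enlargement of the brain ventricles that ependymal cilia normally help to keep clear. Here 8 adenylate kinase genes, Ak1, Ak3, Ak4, Ak5, Ak6, Ak7, Ak8 and Ak9, were taken by symbol from a count table of 22851 mouse genes. Ak7, Ak8 and Ak9 were treated as the ciliary members, and the other 5 as the general ones.

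The libraries came from radial glial cells, the neural progenitors of the newborn brain, isolated from mice of postnatal day 0 to 3 on a C57BL/6J background. The cells were grown in medium with 10% fetal bovine serum and then kept without serum for 6 days, which turns them into multiciliated ependymal cells. The series had 2 groups of 3 libraries: wild-type (WT) cells and cells of mice in which Edf1 had been knocked out by genome editing with Cas9. Edf1 encodes a small transcriptional coactivator that also binds collided ribosomes, and the series asks which genes depend on it as ependymal cells form. The replicates are described as biological; the number of mice behind each library, and whether the edited mice were of 1 line, are not given in the sources used here.

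Total counts were 13071766 to 28087006 per library. Edf1 had 2193, 1105 and 1483 counts in WT replicates 1, 2 and 3 and 160, 196 and 373 in knockout replicates 1, 2 and 3. Its knockout level was thus 13.7% of WT in CPM (the gene's share of a library's counts, scaled to a common total and for library composition), in the direction of the label in all 6 libraries. The labelled cell type was checked against 10 markers of multiciliated ependymal cells. All were measured, with a summed level of 1841 to 2091 CPM in WT and 1069 to 1126 CPM in the knockout. Markers of radial glia and astrocytes summed to 10494 to 10984 CPM in WT and 11415 to 11849 CPM in the knockout. Most of this sum was Vim (6273 and 6849 CPM on average). Of the 10 genes in that list 3 were lower in the knockout, Gfap among them (539 and 402 CPM on average), and the others were higher. Markers of microglia summed to 1923 to 2075 CPM in WT and 1298 to 1339 CPM in the knockout. WT replicate 2, which had the fewest counts, stood apart from WT replicates 1 and 3 on the second principal component, which held 16.1% of the variance. It also stood apart on the first component, which split the genotypes and held 60.7%. There it lay at -32.5, against -18.1 for both WT replicates 1 and 3, and farther from the knockout libraries.

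The ciliary members were all lower in cells without Edf1. Ak7 fell to 48.8% of its WT level, Ak8 to 52.7% and Ak9 to 64.2%. Among the general members Ak6 fell to 70.1%, Ak1 and Ak3 rose by 13.9% and 15.2%, and Ak4 and Ak5 did not pass the test. All 8 genes had enough counts to be tested. In edgeR's quasi-likelihood test of knockout against WT, 6 members passed an adjusted p-value of 0.05, 4 of them lower and 2 higher. The adjustment was that of Benjamini and Hochberg over 14243 tested genes, of which 26.9% passed, 14.2% lower and 12.7% higher. The median log2 fold change was -0.27 over the 8 members and 0.0029 over all tested genes.

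The regions around the annotated starts of the 3 ciliary members are shown because these genes fell together. Each runs from 250 bases before to 20 bases after the start, 5′ to 3′ on the plus strand of build GRCm38.p6, from RefSeq. Ak7 is at chr12:105705732-105706001, Ak8 at chr2:28699911-28700180 and Ak9 at chr10:41303684-41303953. Capitals mark matches, on either strand, to TGTTTAC, a core that forkhead factors such as Foxj1 bind, or to the half-site GTTNCC followed, after 2 bases, by its reverse complement GGNAAC, a form of the X-box bound by Rfx factors, which together with Foxj1 switch on motile cilia genes.
Ak7: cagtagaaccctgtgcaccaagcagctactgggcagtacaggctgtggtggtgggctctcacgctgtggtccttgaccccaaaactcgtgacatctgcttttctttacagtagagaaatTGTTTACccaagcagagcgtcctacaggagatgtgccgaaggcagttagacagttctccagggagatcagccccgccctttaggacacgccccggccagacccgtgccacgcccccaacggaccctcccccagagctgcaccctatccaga
Ak8: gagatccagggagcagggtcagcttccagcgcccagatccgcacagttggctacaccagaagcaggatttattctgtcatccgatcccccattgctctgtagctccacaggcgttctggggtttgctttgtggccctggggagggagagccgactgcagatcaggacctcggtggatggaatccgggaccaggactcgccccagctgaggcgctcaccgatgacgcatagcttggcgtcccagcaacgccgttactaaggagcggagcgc
Ak9: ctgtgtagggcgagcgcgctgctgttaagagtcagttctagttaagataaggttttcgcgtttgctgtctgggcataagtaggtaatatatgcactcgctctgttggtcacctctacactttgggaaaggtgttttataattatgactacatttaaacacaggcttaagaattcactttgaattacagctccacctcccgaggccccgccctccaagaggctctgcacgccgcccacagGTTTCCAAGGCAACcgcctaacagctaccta

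The Ak7 region holds 1 forkhead core, which begins at base -131 from the start, and the Ak9 region holds 1 X-box, which begins at base -11. These positions count from the RefSeq start. For Ak9 the window ends at 41303953, before the gene start of 41303980 in the GENCODE annotation used below. Which start these cells use is not shown by the counts. Neither string occurs in the Ak8 window, and the matches do not overlap. Of 32851 start regions of the same length, 3.38% hold the forkhead core and 0.42% the X-box. RefSeq start regions were matched for 7 of the 8 members, and none of those of Ak1, Ak3, Ak4 and Ak6 holds either string. The strings were chosen after these regions had been read, and a match describes letters in a window, not binding.

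Ak7 lies on chromosome 12 from 105705976 to 105782447 in GRCm38 and encodes an adenylate kinase of motile cilia. It had 5877, 2938 and 3928 counts in WT replicates 1, 2 and 3 and 1750, 1763 and 3309 in knockout replicates 1, 2 and 3. In CPM these came to 221, 228 and 212 for WT against 108, 98.2 and 117 for the knockout. The highest knockout library lay far below the lowest WT library. The means were 221 ± 7.99 and 108 ± 9.46 CPM (SD, n = 3 each). Ak7 had a log2 fold change of -1.03 (SE 0.065, 95% interval -1.17 to -0.89), with an adjusted p-value of 4.89e-07 by edgeR. Of all tested genes, 1.63% had a lower log2 fold change. No exon of Ak7 overlaps another annotated gene, and none of its 31-base words occurs in another annotated transcript.

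Ak8, another adenylate kinase of motile cilia, lies on chromosome 2 from 28700164 to 28813165. It had 42.5, 45.1 and 39.9 CPM in WT replicates 1, 2 and 3 and 21.9, 23.7 and 21.4 CPM in those of the knockout, with no overlap between the groups. Behind these values lay 1127, 580 and 738 WT counts, against 357, 426 and 605 for the knockout. On the log2 scale Ak8 fell by 0.92 (SE 0.077, 95% interval -1.09 to -0.76, adjusted p-value 3.26e-06 by edgeR). Ak8 too shares no exon or 31-base word with another annotated gene.

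Ak9, a large member with several kinase domains, lies on chromosome 10 from 41303980 to 41434534. It had 122, 115 and 118 CPM in WT replicates 1, 2 and 3, and 79.99, 65.7 and 82.1 CPM in knockout replicates 1, 2 and 3. The groups did not overlap, and knockout replicate 2 was the lowest library. The fitted log2 fold change was -0.64 (SE 0.077, 95% interval -0.80 to -0.47, adjusted p-value 6.25e-05 by edgeR). Its counts ranged from 1180 to 3228. Knockout replicate 2 was also the lowest of its group for Ak7 but the highest for Ak8.

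Markers of multiciliated cells and of microglia moved with these genes. Of the 10 multiciliated markers 9 were called lower, and the median of their log2 fold changes was -0.90. Over all tested genes 14.2% were called lower. Of the 10 microglia markers 8 were called lower and none higher, with a median of -0.51. Their part in the fall of Ak7, Ak8 and Ak9 was not tested. In bulk RNA, fewer multiciliated cells and less RNA per cell cannot be told apart.

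**Figure D1:**
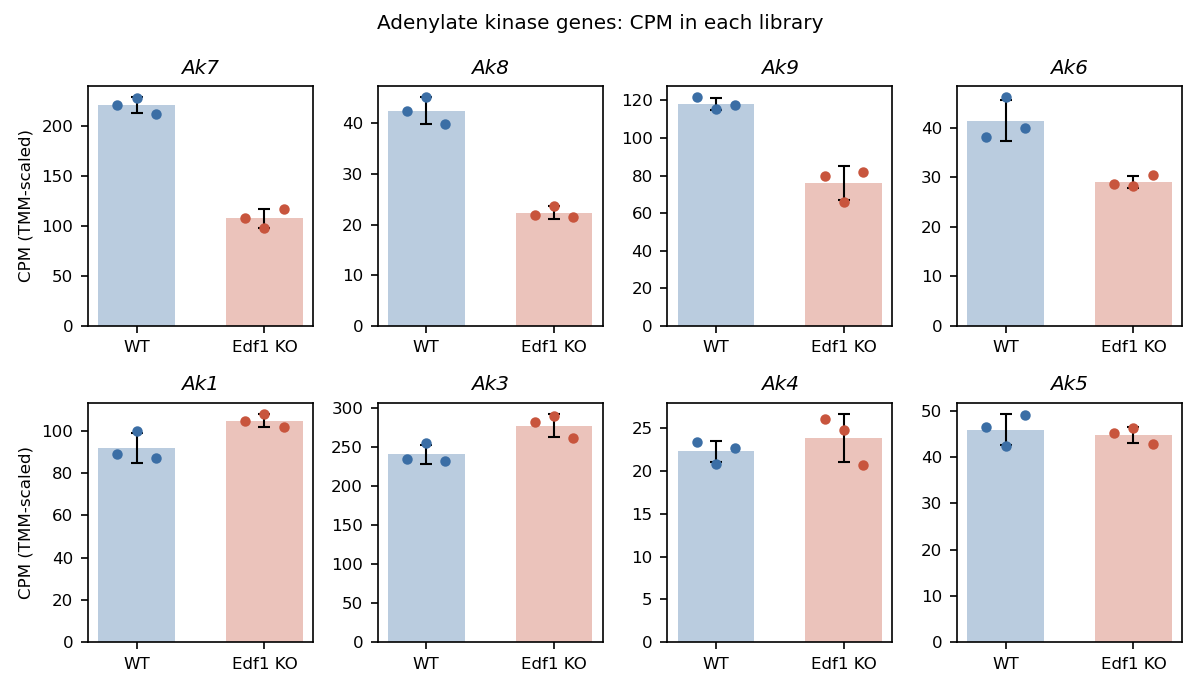
CPM of each adenylate kinase gene (y axis, from 0, scaled separately in each panel) in WT and Edf1 KO libraries; points are libraries, bars are means and whiskers are SD (n = 3). Points of the genotypes do not overlap for Ak7, Ak8, Ak9 and Ak6 (lower in the knockout) or for Ak1 and Ak3 (higher), and they overlap for Ak4 and Ak5.

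The 3 ciliary members were then compared with each other and with Foxj1, the transcription factor that drives motile cilia genes, through the log2 ratio of their CPM within each library. This removes any factor common to a library. For Foxj1 the WT mean was 788 ± 43.4 CPM against 523 ± 10.3 CPM without Edf1 (SD, n = 3), a log2 fold change of -0.59. With 3 libraries against 3, the exact two-sided permutation test cannot give a p below 0.1, so none of the 6 ratios could reach 0.05.

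The ratio of Ak7 to Ak9 was lower in every knockout library than in any WT library. On the log2 scale the ratio of Ak7 to Ak9 was 0.86, 0.98 and 0.85 in WT replicates 1, 2 and 3 and 0.43, 0.58 and 0.51 in the knockout. The groups did not overlap, and the means differed by -0.39 (exact permutation p = 0.1, the smallest possible, and 0.2 adjusted over the 6 ratios). The ratio of Ak7 to Foxj1 was also lower in all knockout libraries. On the log2 scale it was -1.79 to -1.88 in WT and -2.19 to -2.40 in the knockout, a difference of -0.45 with the same p-values. For Ak8 to Foxj1 the difference was -0.33, again without overlap and with the same p-values.

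The groups overlapped for the other pairs, and these differences depended on single libraries. The ratio of Ak7 to Ak8 was 2.34 to 2.41 in WT and spread from 2.04 to 2.45 in the knockout, a difference of -0.12 (exact permutation p = 0.5). Leaving out knockout replicate 2 gave -0.0087, and leaving out knockout replicate 3 gave -0.21. Knockout replicate 3 was the only knockout library not below all WT libraries. The groups thus had to separate without it, and no p-value is drawn from that fit. The ratio of Ak8 to Ak9 differed by -0.28 (exact permutation p = 0.3), with knockout replicate 2 inside the WT range. Without that library the difference was -0.42. It was the only knockout library not below all WT libraries, so the groups had to separate without it. Ak9 to Foxj1 differed by -0.055 (exact permutation p = 0.5). With 1 library left out it ran from -0.12, without WT replicate 2, to 0.037, without knockout replicate 2.

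**Figure D2:**
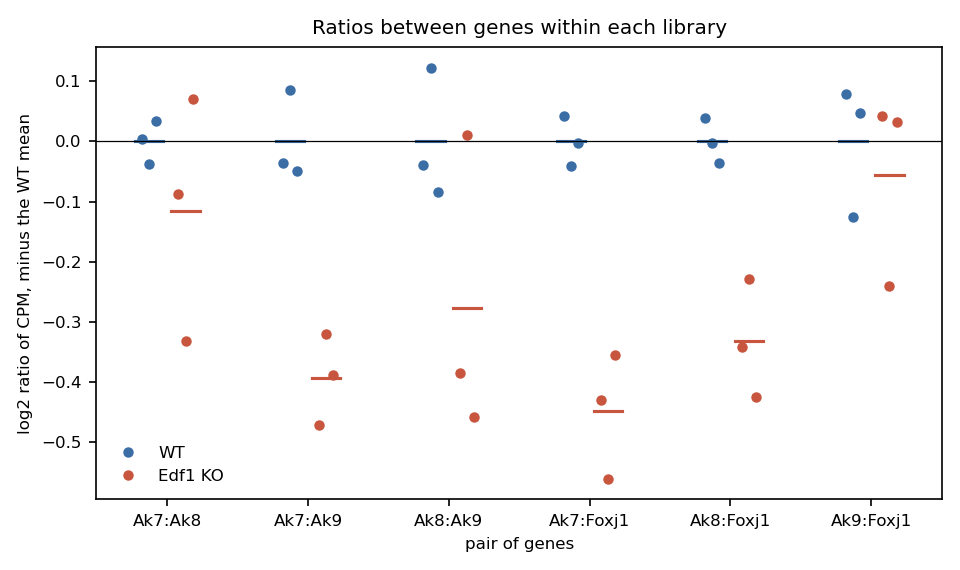
Log2 ratio of CPM of 2 genes within each library, minus the mean of the WT libraries (y axis), for 6 pairs (x axis); points are libraries and short lines are group means (n = 3). Knockout points lie below all WT points for Ak7:Ak9, Ak7:Foxj1 and Ak8:Foxj1, and mix with them for the other pairs.

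Among the general members, Ak6 was the only one called lower. It encodes a nuclear adenylate kinase with a role in making ribosomes, and lies on chromosome 13 from 100650979 to 100666359. It had 38.2, 46.1 and 39.9 CPM in WT replicates 1, 2 and 3 and 28.5, 28.2 and 30.3 CPM in knockout libraries, without overlap. Its log2 fold change came to -0.50 (SE 0.082, 95% interval -0.68 to -0.32, adjusted p-value 0.000649 by edgeR). Ak6 shares its locus with Taf9, which encodes a subunit of the general transcription factor TFIID. Of the 2769 exon bases of Ak6, 1564 also belong to Taf9 on the same strand and 73 to Rad17 on the opposite strand. The counting rule for such reads is not given in the sources used here, so the counts of Ak6 and Taf9 are uncertain. Taf9 itself went from 166 ± 8.09 CPM (WT) to 116 ± 4.18 CPM (knockout; SD, n = 3), or -0.51 on the log2 scale, close to the value of Ak6.

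Ak3 encodes a mitochondrial matrix enzyme that uses GTP, and lies on chromosome 19 from 29020833 to 29047961. It had 235, 254 and 232 CPM in WT replicates 1, 2 and 3 and 281, 289.8 and 261 CPM in knockout libraries. Ak3 had a log2 fold change of 0.21 (SE 0.055, 95% interval 0.085 to 0.33, adjusted p-value 0.0157 by edgeR). The groups did not overlap, although WT replicate 2 came near knockout replicate 3. The call was lost when WT replicate 1 or either of knockout replicates 1 and 2 was left out (adjusted p-values 0.0635, 0.0753 and 0.0882 by edgeR). Exons of Ak3 overlap opposite-strand exons of Cdc37l1 and 1700018L02Rik over 713 bases, 22.9% of its exon bases, and whether strand was used in counting is not given. Cdc37l1 did not pass the test (log2 fold change -0.058, adjusted p-value 0.568 by edgeR).

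Ak1 encodes the main cytosolic enzyme of muscle, brain and red blood cells, and lies on chromosome 2 from 32621758 to 32635058. It had 88.9, 100.07 and 86.9 CPM in WT replicates 1, 2 and 3 and 104, 108 and 102 CPM in knockout libraries. The gap between WT replicate 2 and the lowest knockout library was small. Its log2 fold change, 0.19 (SE 0.063, 95% interval 0.053 to 0.33), passed with an adjusted p-value of 0.0417 by edgeR. Among the fits with 1 library left out, the call held only without WT replicate 2 (0.25, adjusted p-value 0.000505 by edgeR). Without any one of the other libraries the adjusted p-value was 0.0714 to 0.146 by edgeR. Red blood cell markers were near 0 in every library, with a summed level of 0.54 to 0.60 CPM in WT and 0.55 to 1.03 CPM in the knockout, and Hba-a2, Hbb-bs and Hbb-bt were at or under 3 counts throughout. In the list of 10 fibroblast, mural and endothelial markers, the 6 genes with enough counts were fibroblast or mural genes (Col1a1, Col1a2, Dcn, Lum, Pdgfrb and Acta2), and all were called higher. The share called higher over all tested genes was 12.7%. The endothelial genes Pecam1, Cdh5 and Cldn5 and the mural gene Rgs5 were too low to be tested. The list summed to 712 to 791 CPM in the knockout against 558 to 596 CPM in WT, most of it Acta2 (586 and 475 CPM on average). Its part in the rises of Ak1 and Ak3 was not tested.

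Ak4 and Ak5 did not pass the test. Ak4, a second enzyme of the mitochondrial matrix, lies on chromosome 4 from 101419277 to 101466995. It had 23.3, 20.8 and 22.6 CPM in WT replicates 1, 2 and 3 and 26.0059, 24.7 and 20.6 CPM in knockout libraries, with knockout replicate 3 below all WT libraries. Its log2 fold change was 0.082 (95% interval -0.13 to 0.29, adjusted p-value 0.579 by edgeR). It was 0.12 without WT replicate 1, 0.036 without WT replicate 2, 0.015 without knockout replicate 1, 0.051 without knockout replicate 2 and 0.19 without knockout replicate 3, and passed in none of these fits. Of its 31-base words, 12.7% also occur in the annotated pseudogene Ak3l2-ps.

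Ak5, a cytosolic enzyme best known from the brain, lies on chromosome 3 from 152462815 to 152668360. It had 46.4, 42.3 and 49.03 CPM in WT replicates 1, 2 and 3 and 45.1, 46.2 and 42.9 CPM in knockout libraries, and the groups overlapped. Ak5 had a log2 fold change of -0.044 (95% interval -0.19 to 0.11, adjusted p-value 0.682 by edgeR). Neuron markers summed to 263 to 342 CPM in WT and 287 to 301 CPM in the knockout. Most of this sum was Map2 (260 and 242 CPM on average), which did not pass the test with all libraries. Without WT replicate 2, Map2 was called lower (log2 fold change -0.23, adjusted p-value 9.55e-05 by edgeR). Of the 8 tested neuron markers 2 were called lower, beside 14.2% of all tested genes. These were Tubb3, at 56.4% of its WT level, and Dcx, at 32.2%, with WT means of 6.11 and 0.80 CPM. The median log2 fold change of the 8 was -0.088, with 5 below 0. Among those above 0 were Syt1 and Elavl3 (0.53 and 0.42), which did not pass the test.

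In all, 6 of the 8 members had no overlap in CPM between the genotypes, 4 with lower and 2 with higher knockout values. Among all tested genes the same held for 43.3%, with 22.1% lower and 21.3% higher.

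To compare levels between genes, CPM was divided by the length of the longest coding transcript. Which transcripts these cells use is not shown by the table. In WT, Ak3 had the highest level of the 8 genes, with 85.7 ± 4.27 CPM per kb, followed by Ak7 with 71.2 ± 2.58 (SD, n = 3). Their ranges did not overlap. Ak1 followed with 44.1 ± 3.40 CPM per kb, and then Ak6 with 31.9 ± 3.20 and Ak8 with 27.1 ± 1.65. Ak9 had 16.97 ± 0.46 CPM per kb and Ak5 13.8 ± 1.01, and Ak4 was the lowest with 5.10 ± 0.29. The ranges of neighbours in this order did not overlap, although Ak6 (29.4 to 35.5) and Ak8 (25.5 to 28.8) came close. The place of Ak6 is uncertain, because it was divided by 1.298 kb while 1564 of its 2769 exon bases also belong to Taf9. This uncertainty also enters the knockout order and the shares of the summed level below.

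In the knockout the order changed at Ak7 and Ak9. Ak3 stayed first with 98.7 ± 5.30 CPM per kb, and Ak1 was second with 50.2 ± 1.46 (SD, n = 3). Ak7 followed with 34.7 ± 3.05 CPM per kb, above Ak6 with 22.4 ± 0.89 and Ak8 with 14.3 ± 0.77. Ak5, at 13.5 ± 0.50, lay next to Ak8, with ranges of 12.9 to 13.9 and 13.7 to 15.1 CPM per kb, so that these neighbours were not separated. Ak9 was at 10.9 ± 1.28 CPM per kb and Ak4 remained lowest at 5.46 ± 0.64.

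Ak7, Ak8 and Ak9 made up 38.3% to 39.9% of the summed level per length of the 8 genes in WT and 22.3% to 25.7% in the knockout. Their own sum was 111 to 119 CPM per kb in WT and 56.3 to 63.3 in the knockout. The sum of the 5 general members was 174.99, 192 and 175 CPM per kb in WT replicates 1, 2 and 3, against 192, 196 and 183 in knockout libraries. The overlap of these sums rested on WT replicate 2, since both other WT libraries lay below every knockout library.

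**Figure D3:**
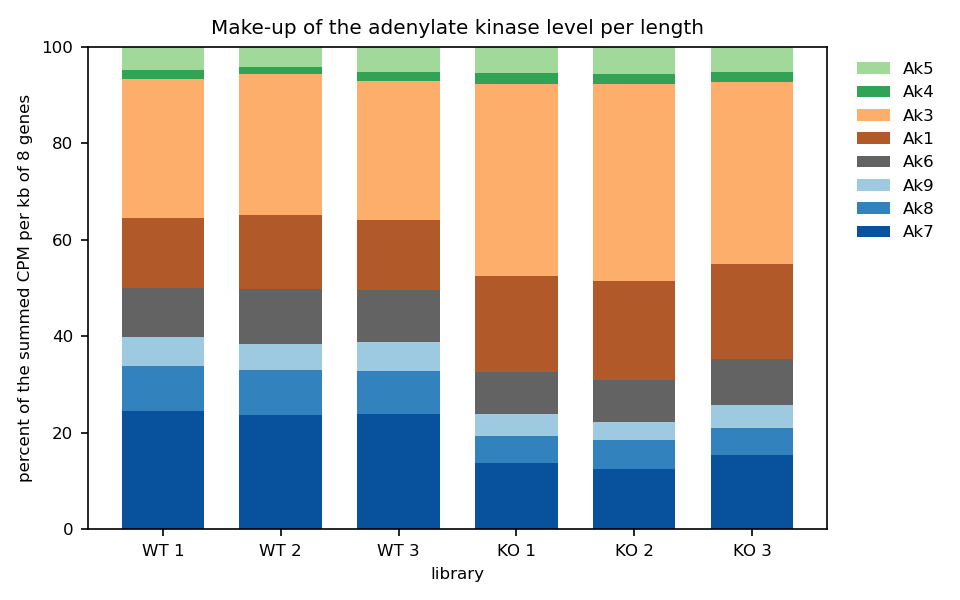
Share of each gene (colour) in the summed CPM per kb of the 8 adenylate kinase genes (y axis, percent) in each library (x axis, 3 WT and 3 Edf1 KO); there are no error bars because each bar is 1 library. The 3 blue segments at the bottom, Ak7, Ak8 and Ak9, take 38.3% to 39.9% in WT and 22.3% to 25.7% in the knockout.

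Genes that work beside the adenylate kinases were examined in 4 lists. The first held 7 ciliary nucleotide genes: nucleoside diphosphate kinase relatives of cilia (Nme5, Nme7, Nme8 and Nme9), Cfap45 and Cfap52, which encode proteins inside ciliary microtubules that have been linked to Ak8, and Spef2, a component of the central pair. All 6 genes that could be tested were called lower, beside 14.2% of all tested genes. The median log2 fold change of the 6 was -0.53. Nme9 changed most, from 18.9 ± 1.99 CPM to 8.13 ± 1.25 CPM (log2 fold change -1.20, SE 0.12). Cfap52 fell from 199 ± 16.4 to 118 ± 2.36 CPM (-0.75, SE 0.061), and Cfap45 from 121 ± 8.50 to 77.5 ± 5.10 CPM (-0.64, SE 0.068; SD, n = 3 throughout).

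The remaining genes of that list fell less. Log2 fold changes were -0.42 for Nme7, -0.39 for Nme5 and -0.39 for Spef2. The adjusted p-values of these 6 genes were at most 0.00198 by edgeR. Nme8 was too low to be tested, with 16, 11 and 9 counts in WT replicates 1, 2 and 3 and 8, 2 and 10 in the knockout.

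**Figure D4:**
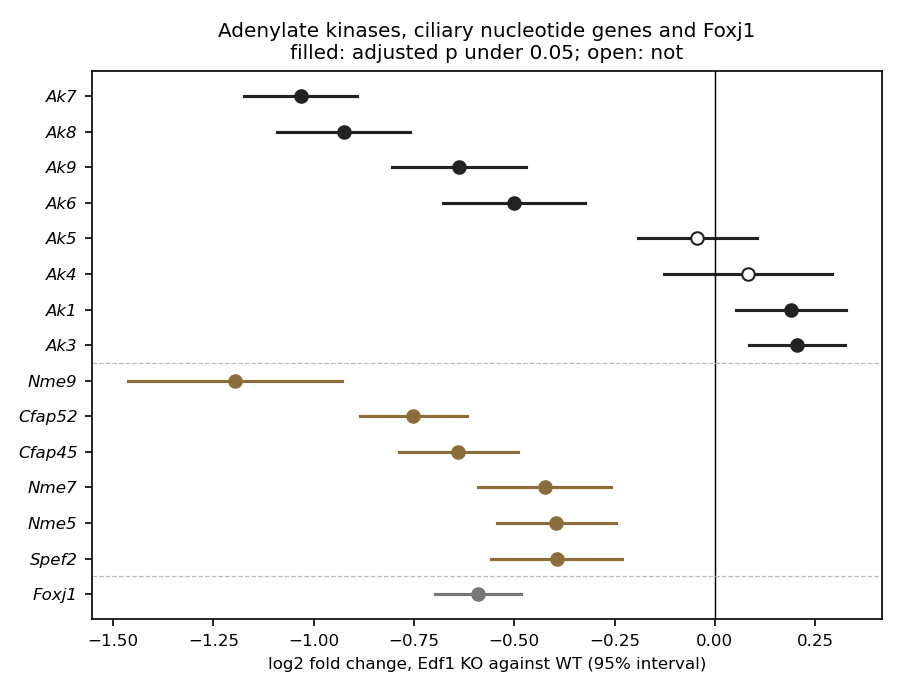
Log2 fold change, Edf1 KO against WT (x axis), with its 95% interval for the 8 adenylate kinase genes (black), 6 ciliary nucleotide genes (brown) and Foxj1 (grey); filled points passed an adjusted p-value of 0.05. The ciliary genes lie from -1.20 (Nme9) to -0.39 (Spef2), and the general adenylate kinases other than Ak6 lie from -0.044 to 0.21.

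The second list, of phosphotransfer and nucleotide kinases outside cilia, held 17 genes. Among them were the AMP deaminase genes Ampd1, Ampd2 and Ampd3, which do not encode kinases. Of 14 tested, 1 was called higher and 3 lower, beside 12.7% and 14.2% of all tested genes. The median log2 fold change of the list was -0.040. Without WT replicate 2, 4 were called higher, with Ckb, Nme2 and Ampd2 added to Ckmt1, and without knockout replicate 2 none was. Ckmt1, a mitochondrial creatine kinase, rose from 6.66 ± 0.89 to 9.80 ± 1.16 CPM (SD, n = 3; log2 fold change 0.55, adjusted p-value 0.0112 by edgeR), and lost its call when knockout replicate 2 was left out (0.45, adjusted p-value 0.0579 by edgeR). Dtymk, which makes thymidine diphosphate, and Cmpk2, a mitochondrial nucleotide kinase, both had a log2 fold change of -0.31, and Nme6 had -0.29. Under a correction for GC content and transcript length, Dtymk was called at -0.19. The call of Nme6 was lost when WT replicate 3 or either of knockout replicates 1 and 3 was left out (adjusted p-values 0.0838, 0.0674 and 0.128 by edgeR).

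AMPK is the kinase that senses AMP, the product adenylate kinases make from ADP. Of 9 tested genes of the complex and its activators 1 was called lower, beside 14.2% of all tested genes. The median log2 fold change of the 9 was -0.055. The gene called lower was Stk11, which encodes the kinase that activates AMPK, at -0.28 (SE 0.054, adjusted p-value 0.00246 by edgeR). Without WT replicate 2, 2 were called lower, Stk11 and Prkag2. Carriers and channels that move adenine nucleotides in and out of mitochondria had a median of -0.079 over 7 tested genes. In this list 1 was called higher and 1 lower, beside 12.7% and 14.2% of all tested genes. Slc25a24, a carrier of ATP, magnesium and phosphate, was called higher at 0.39 (adjusted p-value 0.00845 by edgeR). Vdac2, a channel of the outer membrane, was called lower at -0.20 (adjusted p-value 0.0339 by edgeR). The Vdac2 value was -0.13 without WT replicate 2, and its call was lost without knockout replicate 1 or 3 (adjusted p-values 0.125 and 0.138 by edgeR).

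The genes whose log2 CPM followed each ciliary member most closely over the 6 libraries were listed among 12888 candidates. The likeness rests mainly on the split between the genotypes, which these libraries share. For Ak7 they were Ly86, a secreted partner of a myeloid receptor, the chaperone gene Hsp90aa1, the cilia genes Ccdc113 and Fam161a, and Plk4, the kinase that starts centriole duplication (Pearson r 0.998 to 0.999). Ly86 fell from a mean of 57.2 to 25.8 CPM and Plk4 from 128 to 71.7 CPM. For Ak8 they were Tmem138, Kpna2, Tmem67, Gpr37l1 and Map3k19 (r 0.997 to 0.9996). Tmem67, a gene of the ciliary transition zone, fell from 151 to 103 CPM. For Ak9 they were Cep83, Map3k5, Matn3, Lrrc74b and Pde3b (r 0.994 to 0.998). Cep83, which encodes a protein that anchors the basal body to the membrane, fell from 98.7 to 69.6 CPM. No gene was on more than 1 of these lists.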

How the data were processed

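RNA from 3 WT and 3 Edf1 knockout cultures was sequenced after TRIzol extraction, from libraries of the MGIEasy mRNA kit, as the labels' protocols state. The authors deposited whole-number read counts per gene symbol, 1 column per library. The submitters' processing notes name FastQC 0.11.2, cutadapt 1.11, HISAT2 2.1.0 and GRCm38; the counting program, annotation and use of strand are not given in the sources used here. No row lacked a gene name and no column was unused. Replicates of a group differed by more than counting noise.

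Counts were filtered with filterByExpr (14243 of 22851 genes) and tested with edgeR 4.0.16 in R 4.3.3, without covariates, with TMM factors of 0.985 to 1.01; log2 CPM used a prior count of 2. SEs were derived from the quasi-likelihood F statistics. Gene lengths, exon overlaps and shared 31-base words came from GENCODE M21 (GRCm38), which matched 99.04% of tested symbols. Alternatives were DESeq2 size factors, library size alone, other filters, DESeq2 1.42.0, limma 3.58.1 voom, a replicate block, a correction for GC content and length (splines with 4 degrees of freedom), an adjusted p under 0.01, other prior counts for the ratios, and each library left out. In counts simulated for this comparison with 200 genes changed 2-fold, the edgeR test recovered 92% of them, and 9.36% of its calls were false.

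The members, lists and tests were chosen with earlier results of these data known. Genes named are the 8 members, Edf1, Foxj1, all ciliary nucleotide genes, the called genes of the other nucleotide lists (up to 3 in each direction) and the 5 genes most like each ciliary member (Pearson r, mean log2 CPM of at least 1). Taf9 and Cdc37l1 were named after their values were seen. At the totals here, 3 counts, the floor for a measured level, equal 0.11 to 0.23 CPM.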

Additional observations from a re-analysis of the deposited data

How the results depend on the processing

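Ak6, Ak7, Ak8 and Ak9 kept their direction and their call under all 14 alternatives, from -1.10 to -0.97 for Ak7, -0.97 to -0.84 for Ak8, -0.74 to -0.54 for Ak9 and -0.56 to -0.40 for Ak6 (log2 fold change). The rises of Ak1 and Ak3 were less stable. With 1 library left out in turn they ran from 0.15 to 0.25 and from 0.17 to 0.25, and the count of members called higher ran from 0 to 2. At an adjusted p under 0.01 it was 0, and the count of all changed genes fell from 3833 to 2213 (965 higher and 1248 lower). Ak5 ran from -0.094 to 0.0061 over the fits with 1 library left out, and its sign changed without WT replicate 3. The difference in the ratio of Ak9 to Foxj1 ran from -0.12 to 0.037 in the same way, that of Ak7 to Ak8 from -0.21 to -0.0087, and that of Ak8 to Ak9 from -0.42 to -0.19. The ratios were not computed under the correction for GC content and length. Under it the log2 fold changes of Ak7, Ak8 and Ak9 were -1.01, -0.84 and -0.74, against -1.03, -0.92 and -0.64 in the main fit. Ak9 thus lay closer to Ak7 and Ak8 under the correction.

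The correction for GC content and length gave 3 genes of the phosphotransfer and nucleotide kinase list called higher, 2 AMPK genes lower and 0 mitochondrial exchange genes lower. With 1 library left out these counts ran from 0 to 4, 1 to 2 and 0 to 1. Under the correction Dtymk kept its call at -0.19, while Nme6 and Vdac2 lost their calls (-0.19 and -0.12, adjusted p-values 0.104 and 0.0686 by edgeR), and Nme6 did so by DESeq2 as well (-0.29, adjusted p-value 0.0575). The cause was not tested.

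With the replicate number as a block, 4065 genes were called, 6 of the 8 members among them, and 2 mitochondrial exchange genes were called lower. The deviations of same-numbered libraries were correlated by only 0.069, 0.060 and 0.037, and no pairing was assumed. Each WT library did correlate best with the knockout library of its own number. With 3 libraries per group these values cannot decide whether the libraries were paired. Depth limits the low genes of the lists, such as Nme8, and not the 8 members, which had at least 268 counts in every library.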
